A study of Drosophila melanogaster with 2 samples.

Results

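Distal intron peaks were the summits of chromatin immunoprecipitation peaks that lay inside a gene, outside every annotated exon and more than 2000 bp from the nearest annotated transcription start site (TSS). Of 2516 peaks in the conservative list on the chromosome arms, 335 met these conditions (13.3%, exact 95% interval 12.01 to 14.70%). The condition uses gene models only and no measured value. The peaks came from whole Drosophila melanogaster embryos, collected at 8 to 24 hours, that carried an insertion of a CG16779-eGFP fusion, precipitated with an antibody to GFP and sequenced. The study holds a single group with 2 biological replicates, so there was no second condition to set it against, and the control library that the labels name was not analysed here. The chromatin came from all cells of the embryo, so binding in few cells and weak binding in many cells cannot be told apart. The tagged protein may differ in level or behaviour from the untagged one, which was not tested.

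The conservative list holds peaks whose ranks were reproducible between the replicates, at an irreproducible discovery rate (IDR) of at most 0.01. A further 103 ranked peaks met that limit but were not in the list, 15 of them distal intronic, for a reason not given in the sources used here. Signal below means the deposited signal value of a peak, on the peak caller's own scale, and the mean of the replicates unless a replicate is named. The depth of reads behind a value is unknown, and the intervals given cover counting error alone. Peaks of the same embryos are not replicates, and no p-value is given for them.

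Introns of fly developmental genes are known to carry enhancers, stretches that transcription factors bind and that act on a promoter from a distance. First introns, which begin just past the 5' end of a transcript, are a common place for them, and long introns are typical of genes for transcription factors, signalling proteins and neuronal adhesion molecules. CG16779 is a gene whose product was profiled here as a candidate transcription factor, and a peak in an intron shows only where the tagged protein was recovered, not which gene it acts on.

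The sequence around the summit is shown for 6 of the strongest distal intron peaks, for the other 4 peaks of Tlk, the host with the largest close group, and for the peak in the tagged gene, because the results turn on how the peaks group and on their base composition. Each window runs 50 bp to either side of the summit on the plus strand of dm6, from the RefSeq release 6 genome. Capitals mark matches to GAGAG, the core bound by the GAGA factor, or to GGCGCC, on either strand.
Tlk, chrX:3742176-3742276: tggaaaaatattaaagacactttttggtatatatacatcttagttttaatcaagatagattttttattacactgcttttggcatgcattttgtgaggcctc
CG32486, chr3L:3060752-3060852: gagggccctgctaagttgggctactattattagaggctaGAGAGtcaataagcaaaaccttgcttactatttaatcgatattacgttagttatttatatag
Raf, chrX:2297682-2297782: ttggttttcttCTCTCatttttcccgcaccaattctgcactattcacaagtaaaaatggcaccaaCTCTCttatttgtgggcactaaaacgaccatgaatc
CG34417, chrX:6549832-6549932: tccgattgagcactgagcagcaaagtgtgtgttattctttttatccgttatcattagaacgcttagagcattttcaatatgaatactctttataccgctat
eff, chr3R:14738595-14738695: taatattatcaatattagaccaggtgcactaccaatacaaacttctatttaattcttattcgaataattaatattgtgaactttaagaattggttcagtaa
sick, chr2L:19941474-19941574: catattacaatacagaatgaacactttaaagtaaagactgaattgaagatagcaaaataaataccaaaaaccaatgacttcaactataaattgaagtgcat
Tlk, chrX:3743153-3743253: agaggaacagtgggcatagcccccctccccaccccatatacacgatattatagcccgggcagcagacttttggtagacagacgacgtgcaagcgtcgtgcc
Tlk, chrX:3743567-3743667: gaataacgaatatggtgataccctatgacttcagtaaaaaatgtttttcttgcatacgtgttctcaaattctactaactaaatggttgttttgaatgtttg
Tlk, chrX:3744016-3744116: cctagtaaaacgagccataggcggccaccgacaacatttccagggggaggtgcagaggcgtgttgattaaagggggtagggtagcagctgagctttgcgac
Tlk, chrX:3744479-3744579: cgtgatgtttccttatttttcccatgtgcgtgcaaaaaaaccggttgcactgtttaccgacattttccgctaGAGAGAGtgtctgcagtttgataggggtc
CG16779, chr3R:9491334-9491434: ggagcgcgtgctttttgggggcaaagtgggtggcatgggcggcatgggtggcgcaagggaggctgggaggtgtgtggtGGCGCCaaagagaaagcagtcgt

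The strongest distal intron peak lay in the first intron of Tlk (chrX:3742121-3742307), which encodes the Tousled-like kinase of chromatin assembly. Its signal was 263.9 in replicate 1 and 260.6 in replicate 2. The second lay in a first intron of CG32486 (chr3L:3060712-3060883), with 189.4 in replicate 1 and 233.9 in replicate 2. These were the only distal intron peaks with a signal over 200, which 2 of 335 (0.597%) reached, against 46 of all 2516 peaks (1.83%). Both replicates placed the pair above every other distal intron peak.

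Below them came sbb, which encodes the transcriptional co-repressor Brakeless, with 141.1 in replicate 1 and 130.8 in replicate 2. Raf, the kinase between Ras and MEK, had 132.6 and 109.1, and CG34417 had 94.69 and 138.5. The peak in eff, which encodes a ubiquitin-conjugating enzyme, had 122.7 and 100.1. In Su(Tpl), the gene of the elongation factor ELL, a peak with 97.62 and 111.8 lay where the gene for the chromatin remodeller Mi-2 overlaps it, so its host is ambiguous. Signal passed 100 in 9 of the 335 distal intron peaks (2.69%), against 188 of all peaks (7.47%). Both parts of the double entry described below are among the 9.

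The other hosts among the 20 strongest peaks were sick, a regulator of actin, osp, rdx, a Cullin adaptor of the Hedgehog pathway, CG12769, the nuclear receptor gene Hr4, the forkhead gene CHES-1-like, the DYRK kinase gene mnb, the phosphatase gene Pp2C1, Evi5, atos, and the overlapping pair kirre and CG32795. The remaining 2 were a double entry in the overlapping genes Hr3, CG46321 and CG12912, with neighbouring summits and the same signals, 99.82 in replicate 1 and 104.9 in replicate 2. In the pooled reads their signals were 208.5 and 4.03, and the second entry was in the own list of neither replicate. The 20 strongest had signals of 81.9 or more, and 14 of them lay in a first intron. The X held 9 of them, and it held 65 of the 335 distal intron peaks.

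Double entries of this kind affect the counts that follow. In the conservative list 43 pairs of peaks had been matched to the same peak in each replicate, and 8 pairs (16 peaks) were distal intronic, with summits 200 to 212 bp apart. With each pair counted once, 327 distal intron peaks remained. The pairs lay in Hr3 with CG46321, Eip63E, Bsg, CG10283, CG46467, plh, gpp and ps.

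Most distal intron peaks were weaker than these. The median signal was 40.9, against 42.9 over all peaks, and 142 of 335 (42.4%, 37.0 to 47.9%) lay above the median of the list. By replicate the median was 40.6 in replicate 1 and 42.5 in replicate 2. With the list divided by signal into 4 classes of 629 peaks, from strong to weak, distal intron peaks numbered 64, 78, 103 and 90. Signals in the replicates differed over 2-fold at 9 distal intron peaks (2.69%), against 1.55% of all peaks, and Spearman's rank correlation between replicates was 0.43 over the 335 peaks, which share their libraries. Over all 2516 peaks that correlation was 0.59.

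Each replicate also had an own thresholded list, made without the other replicate. A summit within 100 bp was present in both own lists for 72 of 335 distal intron peaks (21.5%, 17.2 to 26.3%), against 30.9% of all conservative peaks. A further 36 were in the own list of replicate 1 only, 55 in that of replicate 2 only, and 172 (51.3%) in neither, against 45.7% of all conservative peaks. Support followed signal. In the strongest of the 4 signal classes 58 of 64 distal intron peaks (90.6%, 80.7 to 96.5%) were in both own lists, against 93.2% of all peaks in that class, and in the next class 14 of 78 (17.9%, 10.2 to 28.3%), against 30.05%. In both weaker classes none was in both, 0 of 103 and 0 of 90, against 0.318% and 0% of all peaks in those classes.

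**Figure D1:**
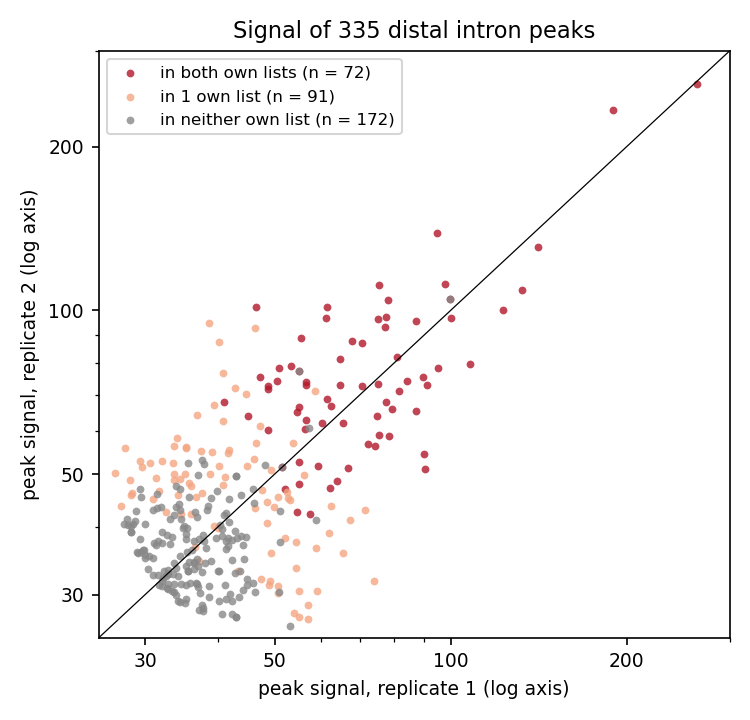
Signal of each of the 335 distal intron peaks in replicate 1 (horizontal, log axis) and replicate 2 (vertical, log axis), coloured by presence of a summit within 100 bp in the own lists; the line marks equal signal. The 72 peaks in both own lists had mean signals of 48.6 or more, and the 172 in neither had a median of 35.9. Their highest, 102.3, was the second entry of the Hr3 pair, which carries the replicate signals of the first entry.

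Distal intron sequence was large and sparsely occupied. It made up 42.3 Mb, 30.8% of the arms, and held 7.91 peaks per Mb. Introns within 2000 bp of a TSS held 28.5 per Mb, promoters (within 500 bp of a TSS) 76.2, exons 8.22, intergenic sequence 6.31, and the arms as a whole 18.3. The same order between the intron classes held for candidate peaks that reached the conservative list: 335 of 35394 ranked peaks in distal introns (0.946%), against 1.86% of all ranked peaks and 2.75% of those in introns nearer to a TSS.

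Within distal introns, density fell with distance. Between 2000 and 5000 bp from a TSS there were 174 peaks (13.2 per Mb), from there to 10000 bp 108 (9.72 per Mb), to 20000 bp 40 (4.61 per Mb) and to 40000 bp 12 (2.78 per Mb). Beyond 40000 bp a single peak remained in 5.07 Mb. The share of ranked peaks that reached the list fell in the same order, at 1.30%, 1.01%, 0.518%, 0.424% and 0.129%. Ranked peaks themselves numbered 1019 per Mb nearest to a TSS and 153 per Mb beyond 40000 bp, so candidates were also scarcer there. The median distance was 4781 bp for distal intron peaks and 8206 bp for distal intron sequence. Median signal showed no such order: it was 41.3 in the nearest bin and 47.4 in the 12 peaks between 20000 and 40000 bp.

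**Figure D2:**
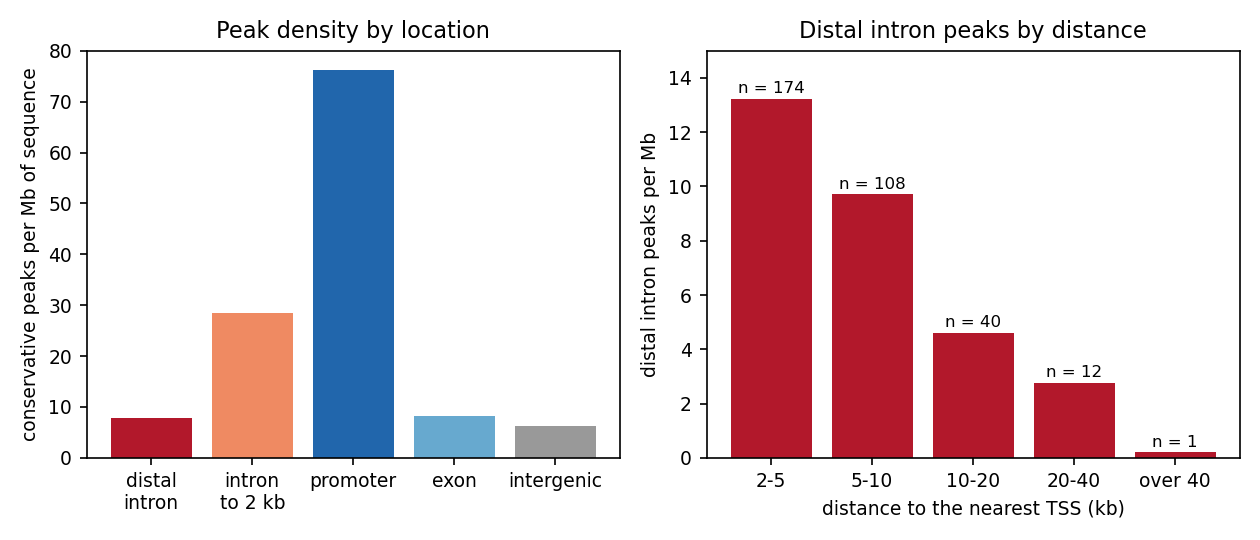
Left, conservative peaks per Mb of sequence in each location class; right, distal intron peaks per Mb by distance to the nearest TSS, with the number of peaks above each bar. Distal introns held 7.91 peaks per Mb, and density fell from 13.2 per Mb in the bin nearest to a TSS to 0.197 per Mb beyond 40 kb.

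The limit of 2000 bp cut through a continuous range. Just inside it lay peaks in NFAT, at 2007 bp with signals of 29.0 in replicate 1 and 42.8 in replicate 2, and in shn with the overlapping CG13229, at 2021 bp with 32.7 and 38.7. Just outside lay peaks in the overlapping lncRNA:CR44357 and CG1677, at 1994 bp with 30.7 and 41.5, in CHES-1-like, at 1999 bp with 47.4 and 68.4, and in lncRNA:CR44320, at 2000 bp with 87.6 and 78.5.

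First introns of any transcript held 214 of the 335 distal intron peaks (63.9%, 58.5 to 69.0%), against 37.2% of distal intron sequence. First introns also lie nearer to a TSS, and the excess was seen within distance bins. Between 2000 and 5000 bp 126 of 174 peaks (72.4%, 65.1 to 78.9%) were in a first intron, against 51.3% of the sequence there, and between 5000 and 10000 bp 66 of 108 (61.1%, 51.3 to 70.3%), against 42.6%. Between 10000 and 20000 bp 16 of 40 (24.9 to 56.7%) were, an interval that includes the 32.2% of the sequence. The nearest TSS belonged to a host gene in 226 peaks and to a gene that did not hold the peak in 109.

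By arm, density was 10.02 per Mb on 3L, 8.69 on 2R, 8.29 on 2L, 8.12 on X and 6.51 on 3R. Chromosomes 4 and Y held 0 distal intron peaks, with 33 and 84 ranked candidates. Of the 65 distal intron peaks on X, 22 (33.8%) were in both own lists, against 16.05 to 27.8% on the 4 large autosomal arms. All peaks on X also had the highest share, 40.3%, and the sex of the embryos is not given by the labels.

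Annotated genes around the distal intron peaks numbered 255, of which 247 were protein-coding and 8 noncoding. They held 328 peaks with a protein-coding host and 7 without one, and 22 peaks lay in more than 1 gene. Among the 4224 protein-coding genes with any distal intron sequence, 247 (5.85%) were hosts. Hosts were long: the median length of distal intron sequence was 19.1 kb in hosts, against 1.65 kb over those 4224 genes. The share of hosts was 1.32% among genes with up to 5 kb of distal intron sequence, 11.4% between 5 and 20 kb, 17.96% between 20 and 50 kb, 25.6% between 50 and 100 kb and 19.6% above, while peaks per Mb fell to 1.55 in genes above 100 kb, against 14.3 in those of 5 to 20 kb. Myo81F, with 1938 kb the gene with most distal intron sequence, held 0. Some other genes above 100 kb without a peak lie on the Y. Distal introns there held 84 ranked candidates in 0.937 Mb, against 5866 in 6.51 Mb on 2L. How far the fall above 100 kb rests on sequence with few candidates was not tested.

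Hosts more often had a promoter peak as well. A conservative summit within 500 bp of a TSS of the gene was found for 78 of 247 protein-coding hosts (31.6%, 25.8 to 37.8%), against 16.9% of all 4224 genes with distal intron sequence. Divided by length of distal intron sequence, the share was 21.6% in hosts (8 of 37) and 14.6% in other genes up to 5 kb. From 5 to 20 kb it was 24 of 96 hosts and 18.2% of other genes, and from 20 to 50 kb 40.5% in hosts (30 of 74) and 23.96% in others. From 50 to 100 kb it was 45.2% (14 of 31) and 12.2% (11 of 90), and above 22.2% (2 of 9) and 8.11% (3 of 37). The longest classes hold few hosts, and the number of TSSs per gene was not taken into account. Restricted to peaks over 5000 bp from a TSS, the share in hosts was 25.4% (18.1 to 33.9%), an interval that includes the 19.5% of all genes with such sequence.

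Several distal intron peaks per gene were common. A single peak was held by 185 hosts, 2 by 48, 3 by 13, 4 by 6, 5 by 2 and 6 by 1, so that 70 hosts with 2 or more carried 164 of the 335 peaks (49.0%). Overlapping genes that share peaks were each counted among the 70. With each peak given to a single host, 63 hosts had 2 or more. Counting double entries once, with overlapping genes kept, also left 63, and these corrections were not combined. In the own lists, which held fewer distal intron peaks, 13 hosts had 2 or more by replicate 1 (126 peaks) and 22 by replicate 2 (153 peaks). Chains of peaks less than 5000 bp apart numbered 40 with 92 peaks, or 34 with 78 peaks when double entries were counted once. Signals of peaks in hosts with several (median 41.01) and alone in their host (median 40.6) differed little, and 20.7% and 22.2% of them were in both own lists.

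The largest group of peaks less than 5000 bp apart was that of Tlk, with 5 within 2303 bp of its first intron. The strongest, described above, was followed at 977 bp by a peak with signals of 40.06 in replicate 1 and 39.75 in replicate 2, then by peaks with 39.32 and 40.15, 55.05 and 52.57, and 39.87 and 46.63. One peak thus stood far above the other 4 in both replicates. The second strongest, with a mean of 53.8, still lay above the 75th percentile of distal intron peaks, 52.96. Of the 5, 2 were in both own lists, and the gene held 4 further peaks in introns nearer to a TSS.

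The most peaks in a gene, 6, lay over 27487 bp of a first intron of sbb. The strongest, with 141.1 and 130.8, was the only one in both own lists. The next had 38.60 in replicate 1 and 94.82 in replicate 2, the largest ratio between replicates of all distal intron peaks, 2.46-fold. The others ranged from 31.9 to 45.2 in mean signal.

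Nuclear receptor genes of the ecdysone cascade were among the hosts with most peaks. Eip75B, an early ecdysone-response gene, held 5 peaks in 5 introns over 72149 bp. Their signals in replicate 1 were 35.293 to 47.101 and in replicate 2 29.486 to 67.003, and 0 of them were in both own lists. Hr4 held 4 over 16182 bp, with 87.11 in replicate 1 and 95.62 in replicate 2 at the strongest, 61.42 and 101.4, 65.48 and 62.10, and 27.74 and 55.93. All but the weakest of the 4 in Hr4 were in both own lists, so the groups in the 2 genes differed in support.

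The other hosts with 4 peaks were CG32264, simj, a subunit gene of the NuRD complex, the Wnt receptor gene fz, the bZIP gene Pdp1, and cv-c. In simj the 4 lay within 5324 bp, and in fz they spread over 56199 bp. Each of CG32264, simj and fz had 1 peak in both own lists, while Pdp1 and cv-c had 0. Mean signals in cv-c were 32.5 to 38.7, all in the lower part of the list.

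**Figure D3:**
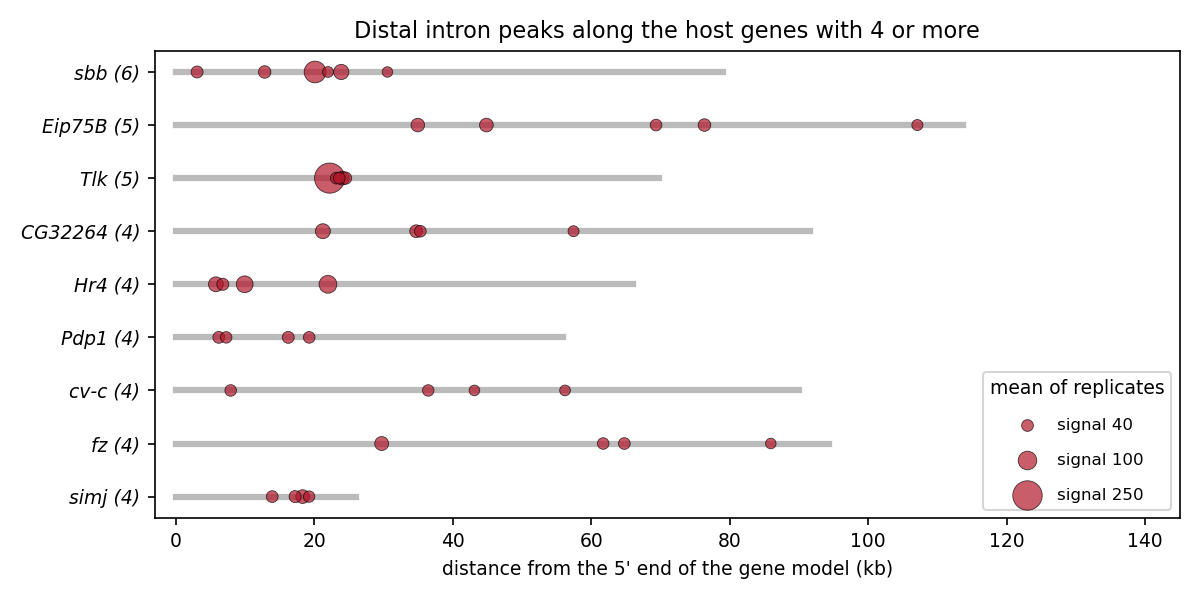
Positions of distal intron peaks along the 9 host genes with 4 or more, as distance from the 5' end of the gene model (kb); grey bars span the gene and the area of each circle is proportional to the mean signal. Peaks of Tlk and simj lie close together, and those of Eip75B and fz spread over much of the gene.

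A peak of the tagged gene itself was among the distal intron peaks. It lay in the first intron of CG16779 (chr3R:9491239-9491528), 2293 bp from a TSS, with 65.4 in replicate 1 and 35.82 in replicate 2. It was in the own list of replicate 1 only. Whether the inserted copy of the gene contributed reads there was not tested.

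Host genes were set beside 10 gene lists, read against the 5.85% of all eligible genes that were hosts. In the ecdysone list 8 of 27 eligible genes (29.6%, 13.8 to 50.2%) were hosts, with 26.8 peaks per Mb of distal intron sequence, against 7.66 per Mb over all eligible genes. Besides Hr4 and Eip75B they included Hr3 and Eip63E, a cyclin-dependent kinase gene with 55.0 in replicate 1 and 77.4 in replicate 2. Candidates in these genes reached the conservative list at 2.80%, against 0.946% over all eligible genes. The rate was 2.81% in the protein kinase list and 1.70% in the transcription factor list, so it was not particular to ecdysone genes. Of the 19 peaks in the ecdysone list, 4 were double entries, a pair each in Hr3 and Eip63E.

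Among sequence-specific transcription factors 20 of 97 genes (20.6%, 13.07 to 30.03%) were hosts, with 16.5 peaks per Mb. Median distal intron sequence was 14.5 kb in this list, 14.8 kb in the ecdysone list and 9.66 kb in developmental signalling, against 1.65 kb over all eligible genes. Among all eligible genes with 5 to 20 kb, 11.4% were hosts, with 14.3 peaks per Mb. The ETS repressor gene aop had 81.7 in replicate 1 and 71.2 in replicate 2, and the Krüppel-like factor gene luna 55.5 and 88.97. The transcription factor list also holds 7 of the 8 ecdysone hosts, EcR, Eip63E, Eip75B, ftz-f1, Hr3, Hr4 and tai, so both lists rest largely on the same genes. Of these, Eip63E is a kinase gene and tai that of a co-activator; without Eip63E the count was 19 of 96 (19.8%) with 16.2 peaks per Mb. Listed transcription factor genes outside the ecdysone list had 13 hosts of 79 (16.5%, 9.06 to 26.5%) and 11.6 peaks per Mb, and ecdysone genes outside the transcription factor list had 1 of 9. The transcription factor list is partial: the forkhead gene CHES-1-like, a host with 2 peaks, is not among its hosts. Developmental signalling had 13 hosts of 69 (18.8%, 10.4 to 30.1%) and 16.04 peaks per Mb, among them mam, a Notch co-activator (74.3 and 56.3), aos, a secreted inhibitor of the EGF receptor (56.5 and 72.9), and wts, the Hippo pathway kinase (66.7 and 51.4).

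Protein kinase genes had 12 hosts of 65 (18.5%, 9.92 to 30.03%) and 27.4 peaks per Mb, 5 of the 19 peaks in Tlk alone. Beside Tlk, Raf and mnb they included Drak, with 75.3 in replicate 1 and 59.1 in replicate 2. Axon guidance and cell adhesion had 9 hosts of 59 (15.3%, 7.22 to 27.0%), yet 4.91 peaks per Mb, below the 7.66 of all eligible genes. They included kirre (90.9 and 73.0), side, a guide of motor axons (87.3 and 65.2), haf (64.5 and 73.0) and the integrin gene mew (41.7 and 55.3).

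RNA-binding and splicing regulators had 5 hosts of 37 (13.5%, 4.54 to 28.8%), among them shep (48.5 and 44.4), the splicing factor gene ps (40.1 and 29.3), heph, the gene of the polypyrimidine tract-binding protein (29.2 and 35.8) and bru3 (35.2 and 29.5), with 4.78 peaks per Mb. Ion channel and synapse genes, although long, had 1 host of 50 (2.00%, 0.0506 to 10.6%), the potassium channel gene Shab, with 30.9 and 32.6, and 0.707 peaks per Mb. Cytoskeleton and muscle had 2 of 50, Dys, the dystrophin gene (72.1 and 56.8), and Zasp52, a gene of the Z-disc (33.4 and 38.3). Polycomb and trithorax genes had 1 of 26, Psc (77.6 and 67.7), yet 8.73 peaks per Mb, against 7.66 over all eligible genes. Their distal intron sequence was short, with a median of 0.664 kb and 0.115 Mb in all, so that density rests on 1 peak. None of the 62 cytoplasmic ribosomal protein genes had distal intron sequence. The lists are small, do not hold every gene of a class, share genes and differ in intron length, and their differences were not tested.

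**Figure D4:**
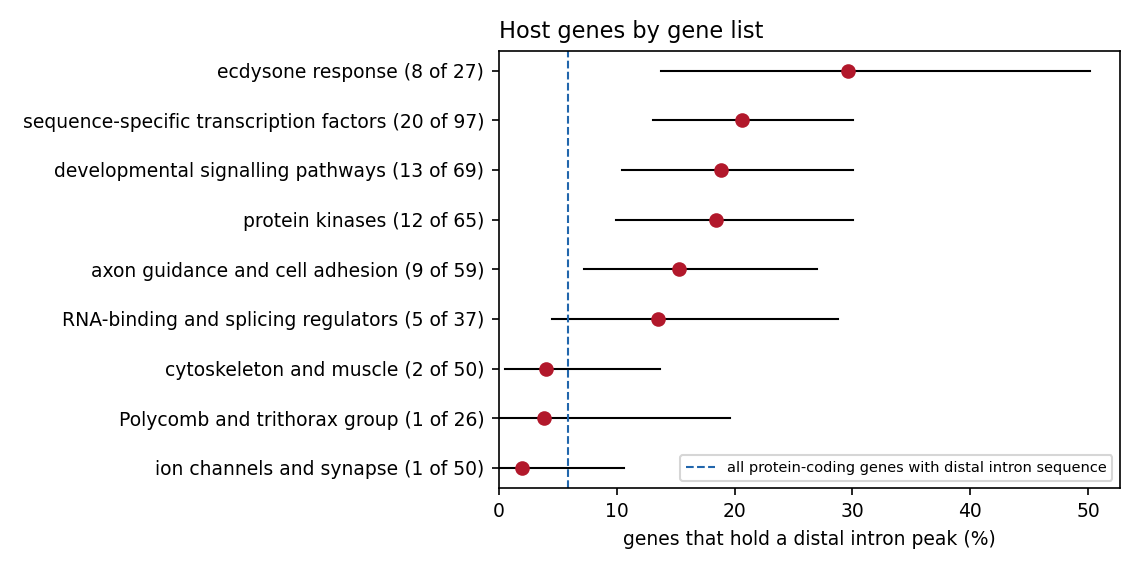
Share of genes with distal intron sequence that hold a distal intron peak, for each gene list (points, with exact 95% intervals; hosts and eligible genes in brackets). The dashed line marks the 5.85% over all 4224 protein-coding genes with distal intron sequence; ecdysone response lies highest at 29.6% and ion channels and synapse lowest at 2.00%.

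Base composition varied with signal, with exceptions on both sides. The Su(Tpl) peak, whose sequence is not shown, had 42.6% G+C at a mean signal of 104.7. The Tlk peak at chrX:3743567-3743667 had 30.7% G+C at 39.7. Within 50 bp of the summit G+C had a median of 39.6% in distal intron peaks and 40.6% in distal intron sequence, while ranked distal intron candidates outside the conservative list had 46.5%. Peaks in both own lists had a median of 33.7%, and those in neither 44.1%. Of the 176 distal intron peaks with under 40% G+C, 52 (29.5%, 22.9 to 36.9%) were in both own lists, against 20 of 159 (12.6%, 7.86 to 18.8%) with more. Median signals were 42.9 in replicate 1 and 48.4 in replicate 2 below that value, and 37.6 and 37.7 above it. Spearman's rank correlation of G+C and mean signal was -0.36 over the 335 peaks, -0.37 over promoter peaks and -0.48 over introns nearer to a TSS, so the relation was not found in distal introns alone. These points share the libraries, and the dependence of sequencing on G+C was not tested.

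**Figure D5:**
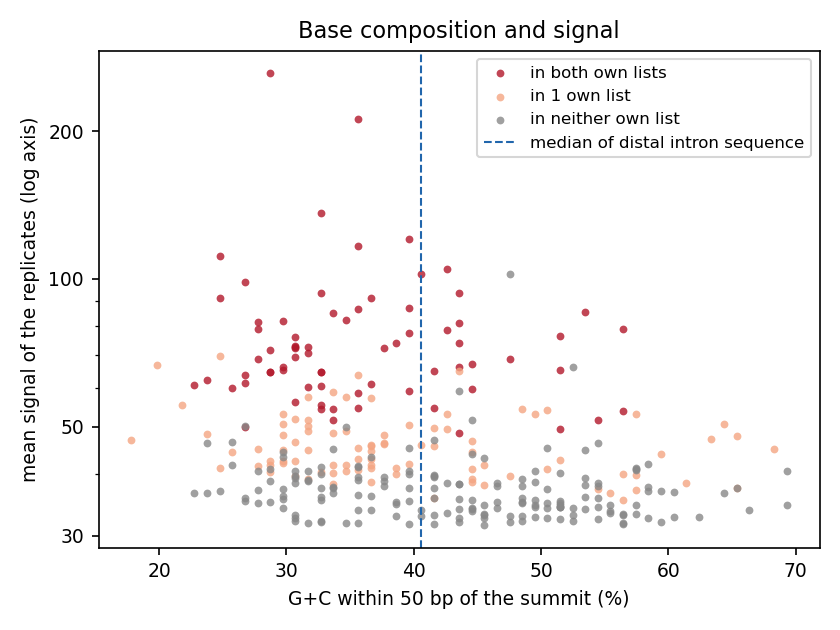
G+C within 50 bp of the summit (%) against the mean signal of the replicates (log axis) for the 335 distal intron peaks, coloured by presence in the own lists; the dashed line is the median of distal intron sequence, 40.6%. Most peaks of high signal lie left of the line, and most of those in neither own list have low signals at any composition.

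Of 20 motifs searched on both strands within 50 bp of the summit, most occurred at distal intron peaks about as often as in 422240 windows of the same length across distal intron sequence. GAGAG was present in 46 of 335 (13.7%, 10.2 to 17.9%), against 11.4% of the windows, and in 2 of the 20 strongest, those of CG32486 and Raf. The part of the BEAF-32 site CGATA was present in 45 (13.4%, 9.97 to 17.6%), against 10.6%. It was more frequent in the 83 distal intron peaks of highest signal, with 18 (21.7%, 13.4 to 32.1%), than in those in neither own list, with 14 of 172 (8.14%, 4.52 to 13.3%), a split chosen after the data had been seen and not tested. The Fos and Jun site TGANTCA, in 13 (3.88%, 2.08 to 6.545%), was the only one of the 20 whose interval lay apart from the windows, at 2.08%, and it did so by less than the rounding. With the own list of replicate 1, the stronger part of the list, the pooled list, peaks over 5000 bp from a TSS or a narrower window its interval included the share of the windows. TATCGATA, the DNA replication-related element, and GGTCACAC, known as Motif 1 of core promoters, were each in 0 of 335, which allows a share of up to 0.896% by a limit of 3 counts, or 1.10% by the exact interval, against 0.217% and 0.145% of the windows. Promoter peaks held them in 2.73% and 1.22%. At this number of peaks a count of 0 allows the shares of the windows. Its limit lies below the promoter interval for TATCGATA (1.94 to 3.73%) but overlaps that for GGTCACAC (0.714 to 1.95%), and the differences were not tested.

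GGCGCC was picked after the sequences had been seen, from a search of every word of 6, 7 and 8 bases in the 335 distal intron peaks and in the 72 in both own lists, so its excess is a description and was not tested. It was present in 14 distal intron peaks (4.18%, 2.303 to 6.912%), against 1.07% of the windows and 1.74% of ranked distal intron candidates outside the list. Promoter peaks held it in 3.09%, intergenic peaks in 5.28% and exon peaks in 8.26%, so it was not particular to distal introns. Peaks in introns nearer to a TSS held it in 6 of 326 (1.84%, 0.678 to 3.96%), an interval that includes the 1.07% of the windows. Exon peaks also had more G+C, with a median of 57.4%, against 39.6% in distal intron peaks. Both Eip75B peaks with it and the CG16779 peak shown above lay among the 14. The match and 15 bases to either side are given for 4 of the strongest peaks with it, on the plus strand of dm6 from RefSeq release 6, with GGCGCC in capitals.
CG8745, chr3L:13862591-13862626: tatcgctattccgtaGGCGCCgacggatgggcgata
aop, chr2L:2163640-2163675: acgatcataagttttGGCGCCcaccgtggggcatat
RapGAP1, chr2L:7535069-7535104: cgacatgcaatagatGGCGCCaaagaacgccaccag
Eip75B, chr3L:18019836-18019871: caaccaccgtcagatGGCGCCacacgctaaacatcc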

How the data were processed

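The lists were analysed as the authors deposited them, on dm6 per the labels. The deposited signal is the peak caller's own value; the aligner, the caller and their versions are not given in the sources used here. The deposited −log10 of the IDR was 2 or more in thresholded lists, per the file headers and values. The signal of each replicate came from unnamed columns of the authors' ranked list, joined by coordinates to each replicate's own list (2510 of 2516 peaks, all with equal signal, 0 to the other replicate). Scaffolds outside the 7 arms were left out. Gene models were Ensembl release 115, without 5889 annotated transposable elements, and 18277 genes remained. Classes were promoter (within 500 bp of a TSS), exon, intron within 2000 bp, distal intron and intergenic, in this order. Windows of 101 bp were read at every 100th base of distal intron sequence. Intervals are exact (Clopper-Pearson). Classification was tested on simulated summits. Python 3.11.15, pandas 2.3.3 and SciPy 1.17.1 were used.

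The peaks and gene lists were chosen with earlier results of these data known. Of 651 list entries, 13 symbols had no match and were not used here. Genes named are hosts of the 20 strongest peaks, hosts with 4 or more, up to 4 hosts per list and the 3 peaks on either side of 2000 bp (1 inside is not reported here); CG16779, GGCGCC, Myo81F, the hosts of double entries and the genes shared by 2 lists were singled out after their values were seen. Leaving out transposable elements, the bins of distance, length and G+C, the counting of double entries and the word search were also chosen after seeing the data. Other words from that search are not reported. Alternatives were other TSS distances, other lists, a single replicate, the stronger part of the list, protein-coding models and other windows.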

Additional observations from a re-analysis of the deposited data

How the results depend on the processing

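Of 85 values recomputed for 9 results, 46 stayed within the exact interval of the reported value, within 1 SD between replicates or within 1.5 times a count, and 39 moved further. Over 1000 bp from a TSS there were 513 peaks, 20.4% of the list, 10.4 per Mb and 402 hosts, and 4 motifs lay apart from distal intron sequence (both GAGA factor motifs and the Fos and Jun site above, the nuclear receptor site below). Over 5000 bp there were 161 peaks, 6.40%, 5.52 per Mb, 132 hosts, 32 with 2 or more, 25.4% of hosts with a promoter peak, against 19.5% of eligible genes, and 0 motifs. The pooled list gave 8.91 peaks per Mb and 0 motifs. The strongest part of the list (1258 peaks) gave 148 peaks, 11.8%, 3.50 per Mb, 48.6% in both own lists, a median signal of 54.5, 132 hosts, 21 with 2 or more and 19.7% with a promoter peak, against 9.94% of all eligible genes; fewer peaks enter by construction. Its 1 motif apart was that of BEAF-32, not the Fos and Jun site. Transposable elements counted as genes, an alternative added after seeing the data, gave 8.97 peaks per Mb, promoter peaks within 1000 bp 38.9% of hosts, against 20.6% of eligible genes, and windows of 25 and 100 bp to either side of the summit 0 and 3 motifs. With replicate 1 or replicate 2 left out, using the own list of the other, there were 126 to 153 peaks, 10.5 to 12.3% of the list, and 2.98 to 3.61 per Mb. Hosts numbered 122 to 133, 13 to 22 with 2 or more, and 17.3 to 22.6% had a promoter peak, against 9.07 to 9.14% of eligible genes. Motifs apart numbered 1 to 2: the Fos and Jun site by replicate 2, those of BEAF-32 and Zelda by replicate 1. The median signal of 40.6 to 42.5 was that of the remaining replicate over the distal intron peaks of the conservative list, not over its own list. No value of own-list support was computed with a replicate left out, and none of signal for the pooled list, whose scale differs. The cause of these moves was otherwise not tested. No paired analysis was possible because there is a single group and no test. Depth is unknown, which limits all counts of weak peaks.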
